A study of Homo sapiens with 6 samples.

Results

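The 6 genes described here, SPRY1, SPRY2, SPRY4, SPRED1, SPRED2 and SPRED3, encode the Sprouty and Spred feedback inhibitors of receptor tyrosine kinase signalling. They were taken by symbol from a table of 15376 coding genes, and all 6 had reads in each library. Their transcripts were measured in PC9ER, a human non-small cell lung cancer cell line of the PC9 family. The parent line of that family is driven by mutant EGFR, the receptor kinase that gefitinib inhibits. Whether the drug inhibited EGFR in PC9ER was not measured in these libraries. There were 2 groups of 3 libraries. Control cells were labelled as treated with DMSO, the vehicle, and the others with 1 µM gefitinib. The treatment text, shared by both groups, gives 72 h with vehicle in place of a Notch inhibitor, serum withdrawal overnight, and gefitinib for the closing 6 h, on cells grown in 10% serum. It does not say whether the control cells also went without serum, so a difference in serum and the drug cannot be told apart. PC9ER is a single line, and nothing says that replicates were separate cultures, so p-values measure only the spread between these libraries, which may be technical.

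Sprouty proteins share a cysteine-rich domain at their C-terminal end and act between an activated receptor and the ERK kinase cascade. Spred proteins carry the same kind of domain behind an N-terminal EVH1 domain, and recruit neurofibromin, the product of NF1, to switch RAS off. Sprouty genes are classical targets of the ERK pathway that their products restrain, which is why their transcripts are widely read as a measure of ERK output. SPRY2 also binds CBL, a ubiquitin ligase that marks EGFR for degradation. What that binding does to EGFR was not measured here.

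SPRY1 and SPRY2 are Sprouty genes whose values moved in opposite directions in these libraries, and the 250 bases before the most upstream start that RefSeq lists for each are shown so that the sequences of both can be seen beside their values. The SPRY1 window is chr4:123396545-123396794 on the plus strand and the SPRY2 window is chr13:80341127-80341376 on the minus strand (RefSeq, GRCh38.p14), each written 5′ to 3′ with matches to the searched motifs in capitals.
SPRY1: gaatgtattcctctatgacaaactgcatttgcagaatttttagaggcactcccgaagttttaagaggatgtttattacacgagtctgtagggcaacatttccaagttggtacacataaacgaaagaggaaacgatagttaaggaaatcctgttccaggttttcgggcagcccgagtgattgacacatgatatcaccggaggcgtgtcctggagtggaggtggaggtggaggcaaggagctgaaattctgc
SPRY2: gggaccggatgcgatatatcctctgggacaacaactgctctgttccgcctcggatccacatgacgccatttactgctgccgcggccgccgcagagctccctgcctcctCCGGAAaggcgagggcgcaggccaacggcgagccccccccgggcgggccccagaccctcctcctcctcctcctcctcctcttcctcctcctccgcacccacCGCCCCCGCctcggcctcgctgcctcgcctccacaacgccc
The SPRY2 window was richer in G and C, at 70.4%, than the SPRY1 window, at 45.6%, and the median over 34943 listed windows was 58.0%. Motifs were searched on both strands by exact letters. In the SPRY2 window an ETS core, CCGGAA, began 142 bases before the start, and a GC-rich EGR motif, GCGGGGGCG, lay on the opposite strand 41 bases before it. Of all windows, 14.5% hold the ETS core and 4.71% the EGR motif. The SPRY1 window held neither, and the windows of SPRY4, SPRED1, SPRED2 and SPRED3 held none of the searched letters either. Against the GENCODE gene spans given below, the SPRY4, SPRED1 and SPRED3 windows lay inside their genes and the SPRED2 window partly inside. The other motifs searched were TGACGT (cyclic AMP response), TGAGTCA (AP-1), GCGTGGGCG (EGR), GTAAACA (FOXO) and CACGTG (E-box), which 7.09%, 4.22%, 0.721%, 2.98% and 6.32% of windows hold. A match is a description of letters, and binding was not measured.

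Values are normalized read counts, scaled by the authors to one total for each library. The libraries held between 13674237 and 38581498 reads in coding genes, and gefitinib replicate 1 was the shallowest. Control replicate 1 stood apart from control replicates 2 and 3, with a chi-square per degree of freedom of 29.2 and 61.2 against 7.95 between those, and gefitinib replicate 1 stood apart from gefitinib replicates 2 and 3 in the same way, with 10.9 and 21.6 against 5.203. All 6 epithelial markers (EPCAM, CDH1, KRT7, KRT8, KRT18, KRT19) were abundant. With gefitinib EPCAM was called higher and the other 5 lower, against 28.3% of all genes called higher and 22.8% lower. The smallest difference was that of CDH1, -0.20 on the log2 scale (limma adjusted p = 0.0364). The median log2 difference of the 6 was -0.58. Their summed value was 81344 to 116558 in control and 67726 to 70679 in gefitinib libraries. Control replicate 1 was the lowest control for the keratins, with KRT19 at 12385 against 21621 and 25456 in control replicates 2 and 3. It was the highest control for EPCAM and CDH1. The summed value of 4 blood markers was 0 to 3.86 in control and 5.42 to 10.6 in gefitinib libraries, and CD14 among them was called higher, from a mean of 0.322 to 7.12. Of the stroma and endothelium markers, PECAM1 had the highest level. It was 1216 ± 80.4 (SD, n = 3) in control and 122 ± 10.5 in gefitinib libraries. COL1A1 followed, at 52.3 ± 19.5 and 54.3 ± 9.85, and was not called. The part of these markers in the results was not tested.

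With gefitinib the family split. SPRY2, SPRY4 and SPRED3 rose, SPRY1 and SPRED2 fell, and SPRED1 did not pass the test (limma on log2(value + 1), Benjamini-Hochberg adjustment over 15229 genes, threshold 0.05). Of all genes tested, 51.1% passed in one direction or the other, 28.3% higher and 22.8% lower, so the 5 calls among 6 members are to be read against calls for a large share of all genes. Gefitinib and control libraries held separate ranges of values for 5 of the 6 members, 3 above and 2 below, and for 58.0% of all genes (32.3% above and 25.7% below). Differences of at least 1 on the log2 scale were called for SPRY2 and SPRED3 upward and SPRY1 and SPRED2 downward, and for 12.4% and 9.92% of all genes. On the recovered whole reads edgeR and DESeq2 made the same 5 calls, against 61.3% of genes for edgeR (30.5% higher, 30.8% lower) and 48.7% for DESeq2 (24.2% higher, 24.5% lower). The median log2 difference was 0.29 over the members and 0.10 over all genes. In bulk RNA, fewer cells that hold a transcript and less of it per cell cannot be told apart.

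**Figure D1:**
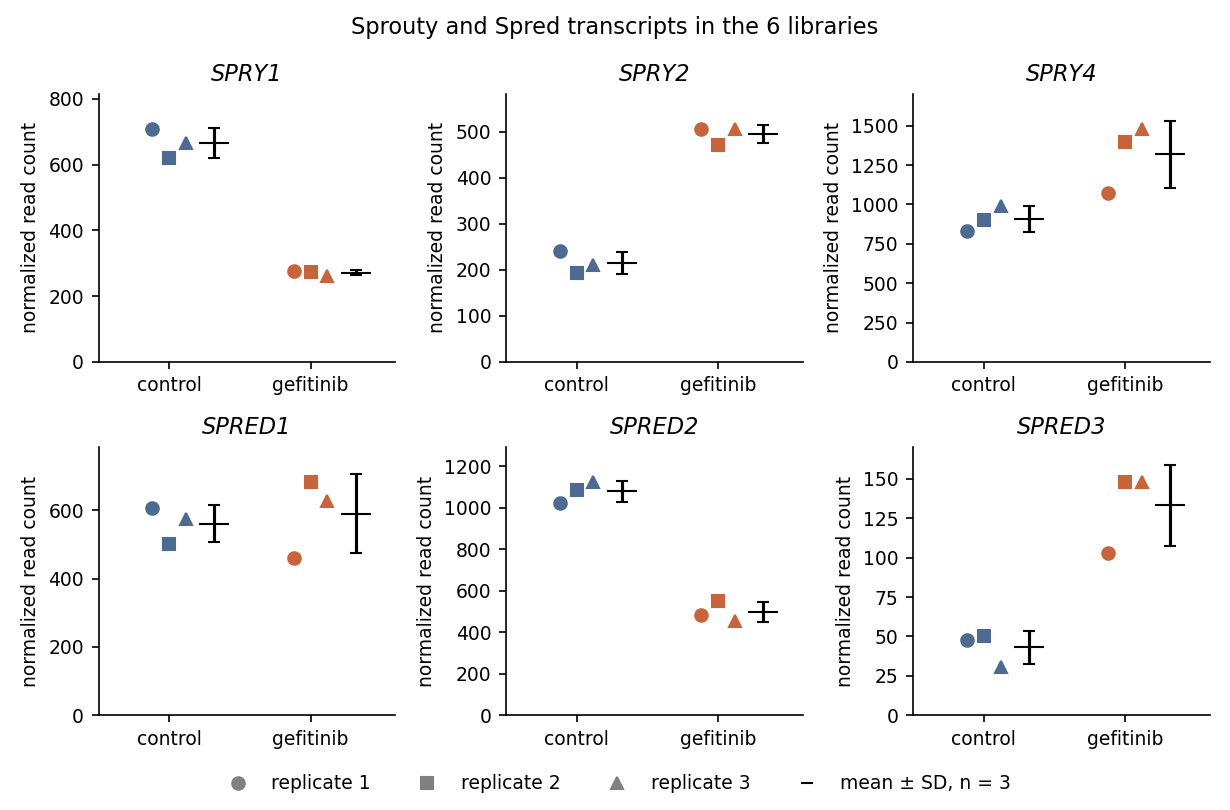
Normalized read counts (vertical axes, from 0) of the 6 genes in each of the 3 control (blue) and 3 gefitinib (orange) libraries, with the mean and SD in black. The groups separate for every gene but SPRED1, whose gefitinib libraries, from 460 to 684, span its control libraries, from 501 to 608.

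SPRY1 (ENSG00000164056; chromosome 4, 123396795 to 123403760, plus strand; GENCODE release 29, GRCh38) encodes a Sprouty protein best known for limiting RET and FGF receptor signals in the developing kidney. Its normalized read counts were 710, 620 and 667 in control replicates 1, 2 and 3, and 278, 275 and 263 in gefitinib replicates 1, 2 and 3. The gefitinib libraries all lay far below the controls and close to each other, with a coefficient of variation of 2.97% against 6.71%. The mean fell to 40.8% of control, from 666 ± 44.7 (SD, n = 3) to 272 ± 8.07, a log2 difference of -1.29 ± 0.11 (SE; limma adjusted p = 1.94e-05). A larger difference in size was seen for 16.2% of all tested genes.

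SPRY2 (ENSG00000136158, chromosome 13, 80335976 to 80340951, minus strand) encodes a CBL-binding Sprouty, and its values ran the other way. The control libraries had 241, 193 and 210 normalized reads, and the gefitinib libraries 507, 472 and 507. Every gefitinib library was above every control. The mean rose 2.31-fold, from 215 ± 24.1 (SD, n = 3) to 495 ± 20.3, a log2 difference of 1.21 ± 0.13 (SE; limma adjusted p = 7.04e-05).

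Within a library, the ratio of SPRY2 to SPRY1 does not depend on how libraries are scaled, apart from the pseudocount. The log2 ratio of the normalized counts was -1.56, -1.68 and -1.66 in the control libraries and 0.86, 0.78 and 0.95 in the gefitinib libraries. SPRY1 was thus the higher count in each control and SPRY2 in each gefitinib library. The shift was 2.50 on the log2 scale. The pair was chosen with its opposite changes known, which fixes the separation of the groups, so the ratio is a description and no p is given for it. Other members also changed order: SPRY4 had a lower count than SPRED2 in each control and a higher one in each gefitinib library.

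SPRY4 (ENSG00000187678; chromosome 5, 142310427 to 142326455, minus strand) encodes a Sprouty often read, with SPRY2, as a reporter of ERK output. It had 832, 903 and 993 normalized reads in control and 1075, 1397 and 1483 in gefitinib libraries. The lowest gefitinib library, replicate 1, was only slightly above the highest control. The mean rose 1.45-fold, from 909 ± 81.0 (SD, n = 3) to 1318 ± 215, a log2 difference of 0.53 ± 0.13 (SE; limma adjusted p = 0.00857). It was the weakest of the calls: 50.4% of all genes had a larger difference, and without gefitinib replicate 2 the adjusted p was 0.0455, the highest over 14 alternatives, against a lowest of 0.00236.

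SPRED2 (ENSG00000198369; chromosome 2, 65310851 to 65432637, minus strand) encodes a Spred protein of broad expression. Its control values were 1025, 1088 and 1126 normalized reads and its gefitinib values 483, 549 and 456. The groups were far apart, with the highest gefitinib library at 549 and the lowest control at 1025. The mean fell to 45.9% of control, from 1079 ± 50.8 (SD, n = 3) to 496 ± 47.8, a log2 difference of -1.12 ± 0.11 (SE; limma adjusted p = 2.90e-05).

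SPRED3 (ENSG00000188766; chromosome 19, 38388421 to 38399587, plus strand) encodes a Spred that lacks a functional KIT-binding domain and is expressed mainly in brain. It was the member with the fewest reads, between 32 and 316 reads in a library before scaling. Its normalized counts were 48.0, 50.2 and 30.9 in control and 103, 148 and 148 in gefitinib libraries. Each gefitinib value was more than the highest control value. The mean rose 3.10-fold, from 43.0 ± 10.6 (SD, n = 3) to 133 ± 26.0, a log2 difference of 1.62 ± 0.27 (SE; limma adjusted p = 0.000863), with a 95% interval from 1.01 to 2.23.

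SPRED1 (ENSG00000166068; chromosome 15, 38252326 to 38357249, plus strand) is the gene lost in Legius syndrome, a disorder that resembles mild neurofibromatosis. It had 608, 501 and 574 normalized reads in control and 460, 684 and 627 in gefitinib libraries. Gefitinib replicate 1 lay below all the controls and gefitinib replicates 2 and 3 above them. The log2 difference was 0.06 ± 0.16 (SE; limma adjusted p = 0.781), with a 95% interval from -0.30 to 0.42, which holds changes from 0.812-fold to 1.33-fold. With TMM factors, DESeq2 size factors, or without control replicate 2 or gefitinib replicate 2, its sign turned.

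**Figure D2:**
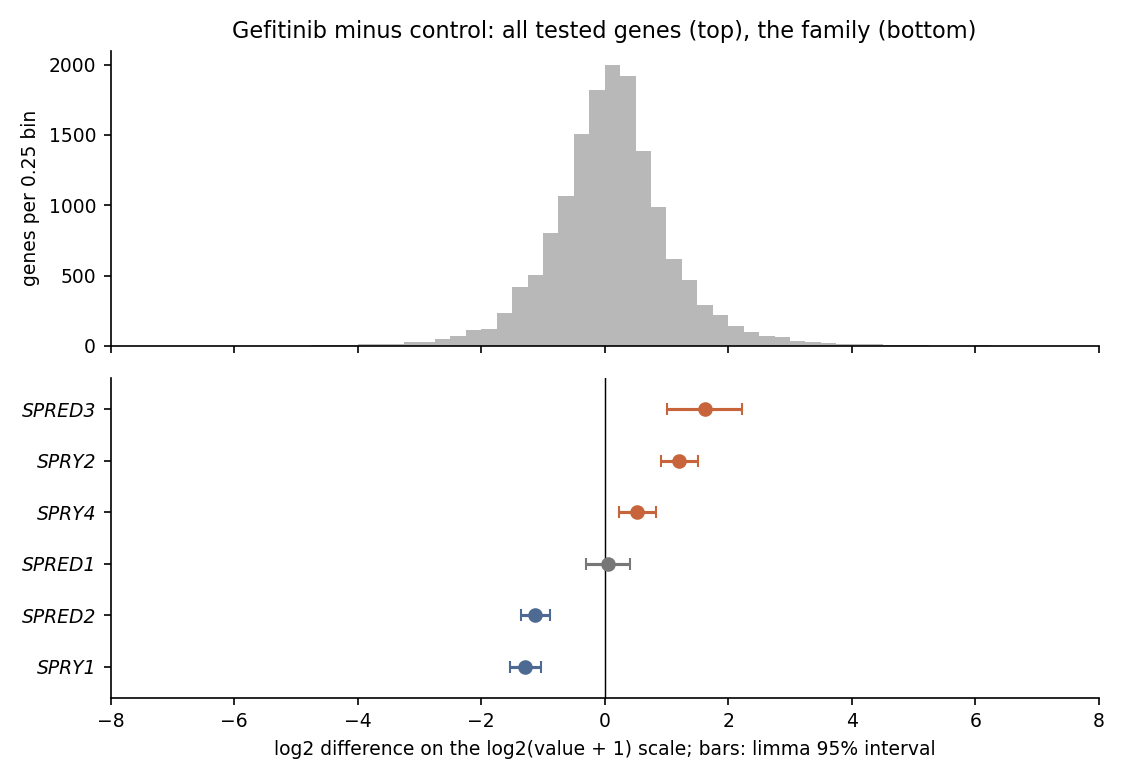
Log2 differences, gefitinib minus control (horizontal axis), as a histogram of all 15229 tested genes in bins of 0.25 (top) and for each member with its limma 95% interval (bottom; orange higher, blue lower, grey not past the threshold). SPRY1 at -1.29 and SPRED3 at 1.62 mark the ends of the family, and the SPRED1 interval spans 0.

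Gefitinib replicate 1 was the shallowest library and 1 of the 2 that stood apart. It was the lowest of its group for 3 members, SPRY4, SPRED1 and SPRED3. Of all genes, it was lowest for 38.0% and highest for 38.1%, and gefitinib replicate 3 for 34.2% and 34.7%. Without gefitinib replicate 1 the log2 differences of SPRY4, SPRED1 and SPRED3 were 0.67, 0.23 and 1.79. Those of SPRY1, SPRY2 and SPRED2 were -1.30, 1.19 and -1.11. Without control replicate 1, the other of these, the differences were -1.24 for SPRY1, 1.29 for SPRY2, 0.46 for SPRY4, 0.12 for SPRED1, -1.16 for SPRED2 and 1.71 for SPRED3. All 5 calls were kept in each case, and also under the other alternatives tried. By position, no exon of a member overlaps an exon of another gene in the GENCODE annotation. Likeness of sequence to other genes was not tested. The SPRY4 locus is overlapped on the opposite strand by the antisense gene SPRY4-AS1 and by the RNA genes RF02039 and RF02038. The SPRED2 locus is overlapped on the same strand by AC012370.1, a sense intronic gene. Each of these has 0 shared exon bases with the member.

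**Figure D3:**
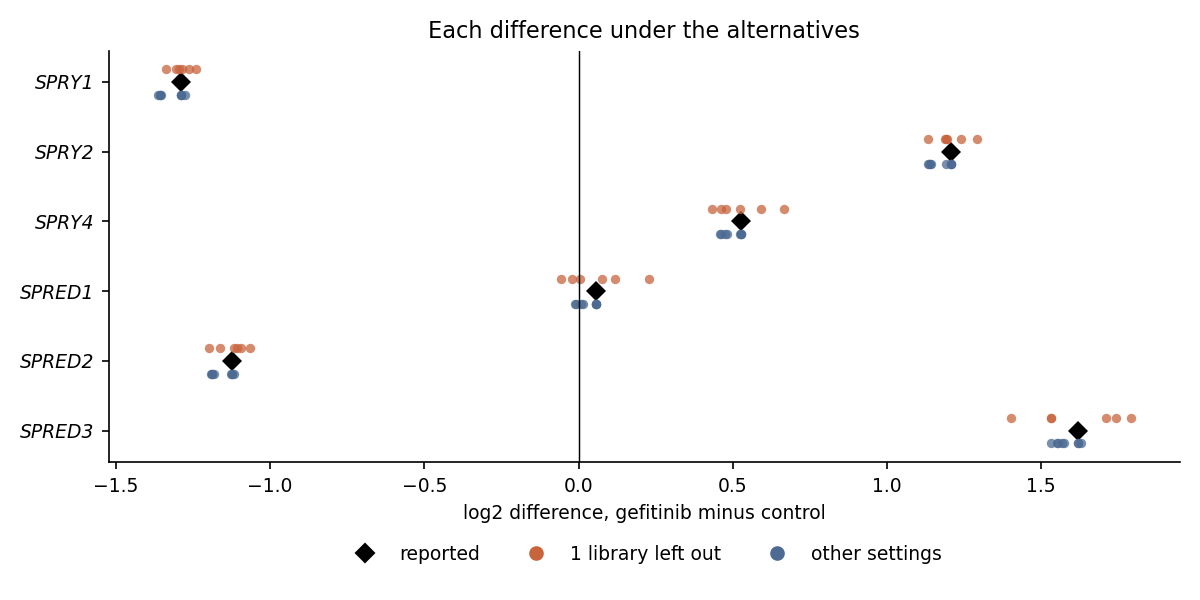
Log2 difference of each member (horizontal axis) as reported (black diamonds), with 1 library left out (orange) and under the 8 other settings (blue). The values stay on one side of 0 for every member except SPRED1, which ranges from -0.06 to 0.23.

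To set the members against each other, the values were divided by the length of the merged exons and are given as RPKM, reads per kilobase (kb) of exon with the library's coding reads as the total. On this scale the order of the control levels was SPRED2 at 11.6 ± 0.545 (SD, n = 3), SPRY1 at 9.29 ± 0.624, SPRY4 at 7.66 ± 0.682, SPRY2 at 3.91 ± 0.438, SPRED1 at 3.76 ± 0.367 and SPRED3 at 0.406 ± 0.0996. Of the neighbours in that order, SPRY2 and SPRED1 overlapped. With gefitinib the order of the levels was SPRY4 at 11.1 ± 1.81, SPRY2 at 9.01 ± 0.370, SPRED2 at 5.32 ± 0.512, SPRED1 at 3.95 ± 0.778, SPRY1 at 3.79 ± 0.113 and SPRED3 at 1.26 ± 0.245. There, SPRY4 overlapped with SPRY2, and SPRED1 with SPRY1. SPRED2 and SPRY1, ranked 1 and 2 in control cells, were ranked 3 and 5 with gefitinib. When lengths were taken from the GENCODE basic transcripts, an alternative added after the data were seen, SPRY2 and SPRED1 exchanged places in control and SPRED1 and SPRY1 with gefitinib.

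The makeup of the Sprouty pool changed more than its size. SPRY1 made up 46.5%, 43.8% and 43.3% of the summed per-length level of SPRY1, SPRY2 and SPRY4 in the control libraries, and 17.5%, 15.8% and 14.4% in the gefitinib libraries. SPRY2 went from between 17.8% and 20.6% to between 35.5% and 41.6%, and SPRY4 from between 32.9% and 38.9% to between 40.9% and 49.2%. The sum itself was 21.3, 19.8 and 21.5 in control and 22.2, 24.2 and 25.4 in gefitinib libraries. These sums did not overlap, but with TMM factors they did, the highest control at 22.6 and the lowest gefitinib library at 21.6, so a rise of the Sprouty sum depends on the scaling. The basic lengths also gave an overlap, with a lowest gefitinib sum of 26.2 and a highest control sum of 27.1.

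The Spred pool shrank. The summed per-length level of SPRED1, SPRED2 and SPRED3 was 15.5, 15.5 and 16.2 in control and 9.23, 11.9 and 10.5 in gefitinib libraries, and the groups lay apart with TMM factors too, at 15.6 to 16.5 and 8.99 to 11.5. SPRED2 supplied 73.5% ± 2.37 (SD, n = 3) of it in control and 50.8% ± 4.83 with gefitinib. The share of SPRED3 grew from 2.59% ± 0.689 to 11.9% ± 1.40, and that of SPRED1 from 23.9% ± 2.30 to 37.3% ± 3.51. The level of SPRED1 itself was 3.76 ± 0.367 in control and 3.95 ± 0.778 with gefitinib, and its difference did not pass the test. Summed over the 6 genes, the level was 36.8, 35.3 and 37.7 in control and 31.4, 36.0 and 35.9 in gefitinib libraries, which overlap; with TMM factors the highest gefitinib sum, 35.3, was just below the lowest control sum, 35.5, and with the basic lengths these were 42.8 and 43.4. The sums were not tested, since the members were chosen with their values known.

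**Figure D4:**
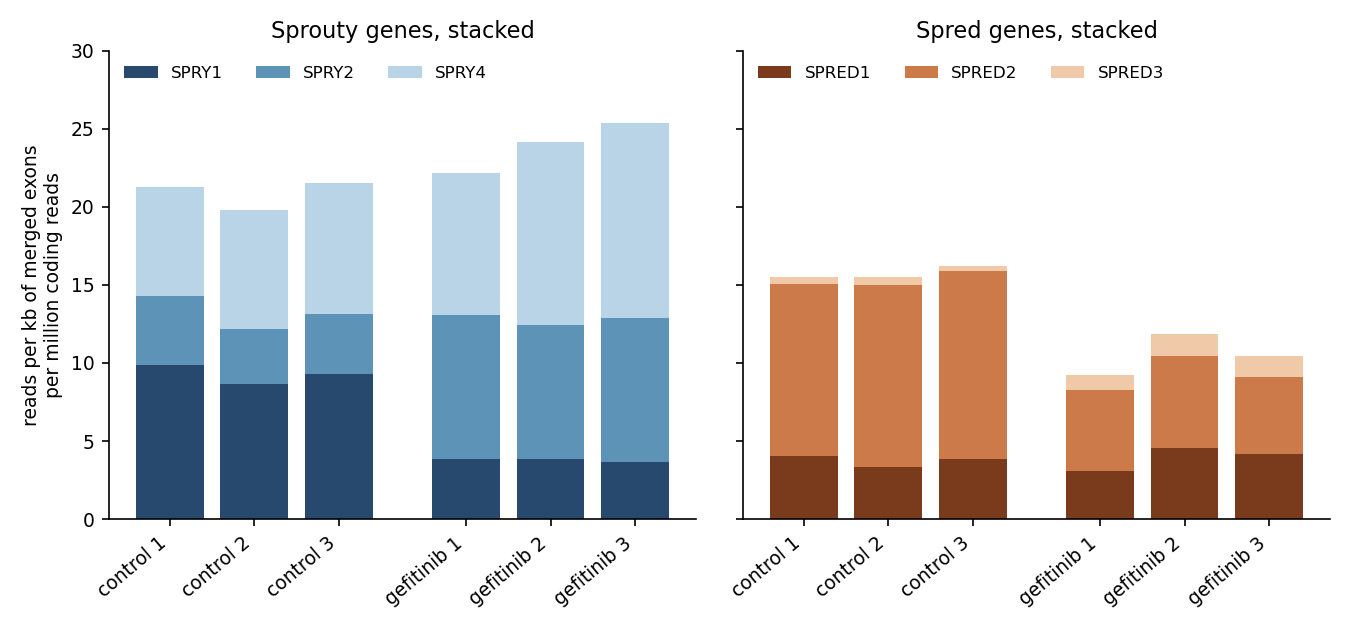
Per-length level, in RPKM over merged exons and coding reads (vertical axis), stacked for the Sprouty genes (left) and the Spred genes (right) in each library. The dark SPRY1 segment shrinks from between 8.65 and 9.90 to between 3.66 and 3.88 while the SPRY2 segment grows, and the Spred bars fall mainly in their SPRED2 segment.

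Of 20 genes for proteins that Sprouty and Spred bind or that modify them, the transcripts of 8 were higher, 5 lower and 7 not past the threshold, with a median log2 difference of 0.07. Of all genes, 28.3% were higher and 22.8% lower, and nothing particular to the list is read from its counts. FRS2, the adaptor of FGF receptors, rose from 759 ± 65.1 (SD, n = 3) to 2262 ± 38.5 normalized reads. SOS1, the RAS exchange factor, rose from 2659 ± 176 to 4147 ± 212. CAV1, a membrane scaffold that binds both families, fell from 4486 ± 273 to 2483 ± 175. NF1, PPP2CA, PTPN11 and SHC1 completed the lower genes. CBL itself had 3621 ± 65.6 and 4066 ± 45.8 (limma adjusted p = 0.0650). The number of lower genes dropped to 3 in each of the fits that left out control replicate 2, gefitinib replicate 2 and gefitinib replicate 3.

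NF1, the RAS GTPase-activating protein that Spred proteins bring to the membrane, had 2756, 2894 and 3197 normalized reads in control and 1940, 1949 and 1963 in gefitinib libraries. The groups did not overlap, and the log2 difference was -0.59 ± 0.08 (SE; limma adjusted p = 0.000259). Of 9 RAS GTPase-activating genes tested, NF1 included, 5 fell, 4 did not pass and 0 rose by limma. Over all genes, limma called 22.8% lower and 28.3% higher. At an unadjusted p under 0.05 there was 1 higher, and edgeR and DESeq2 each called 5 lower and 0 higher. Over all genes, edgeR called 30.8% lower and DESeq2 24.5%. RASAL1, RASAL2, RASA3 and DAB2IP were the other genes that fell, RASAL1 from 200 ± 58.9 (SD, n = 3) to 40.1 ± 3.96 and RASAL2 from 2643 ± 215 to 1137 ± 29.7. RASA3 went from 250 ± 35.3 to 106 ± 17.6. Among those that did not pass, RASA1, RASA2 and RASA4 had log2 differences of -0.03, 0.25 and 0.99, and RASA4 was at 0 in each control library. Without control replicate 1, or without gefitinib replicate 2, limma called 1 of them higher. The number of lower genes in the list was 4 without control replicate 2, control replicate 3, or any single gefitinib replicate.

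Of 11 other brakes of the pathway tested, 6 fell, 2 rose and 3 did not pass, with a median log2 difference of -0.38, against 22.8% of all genes lower and a median of 0.10. With 1 library left out, between 4 and 6 of them fell, and 4 did without control replicate 2 or without gefitinib replicate 3. ERRFI1, an inhibitor of EGFR, and the phosphatase genes DUSP4, DUSP5 and DUSP6 had log2 differences of -1.40, -1.08, -1.26 and -0.92. DUSP5 went from 4000 ± 145 (SD, n = 3) to 1679 ± 251 normalized reads. The risers were PEBP1, which encodes an inhibitor of the ERK cascade, at 0.49 and DUSP7, another phosphatase gene, at 0.86. IL17RD, LRIG1 and SOCS5 did not pass.

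Among 8 genes commonly read as ERK output, 5 fell, 1 rose and 2 did not pass, with a median log2 difference of -1.001. Of these, DUSP4 and DUSP6 are also counted among the brakes. Over all genes, 22.8% were lower and 28.3% higher, with a median of 0.10, the background for each list of this paragraph. Nothing particular to the receptor list and the EVH1 list below is read from their counts. PHLDA1, EPHA4, CCND1, DUSP4 and DUSP6 fell, PHLDA1 by 2.02 and EPHA4 by 1.70 on the log2 scale. ETV5, an ETS transcription factor gene, was the riser, from 1993 ± 72.6 (SD, n = 3) to 3131 ± 210 normalized reads, as SPRY2 and SPRY4 were. EPHA2 and ETV4 did not pass. Without control replicate 3 there were 2 risers. With TMM factors, DESeq2 size factors, edgeR, DESeq2 or the replicate block, or without control replicate 1, 6 genes of the list fell. Of 7 tested receptor tyrosine kinase genes, EGFR and MET fell, by 0.99 and 0.67 on the log2 scale. FGFR1 and FGFR3 rose, by 2.84 and 1.76. FGFR4, PDGFRB and RET did not pass, and PDGFRB and RET had at most 2.23 and 0.965 normalized reads in any library. Of 8 other genes for proteins with an EVH1 domain, the N-terminal module of the Spreds, ENAH and HOMER1 fell, at -0.83 and -0.86, VASP and WAS rose, at 0.48 and 2.04, and EVL, HOMER2, HOMER3 and WASL did not pass. WAS had means of 0.879 and 6.35 normalized reads, and edgeR, DESeq2 and limma on genes with a mean of 10 or more each called 1 gene of this list higher.

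**Figure D5:**
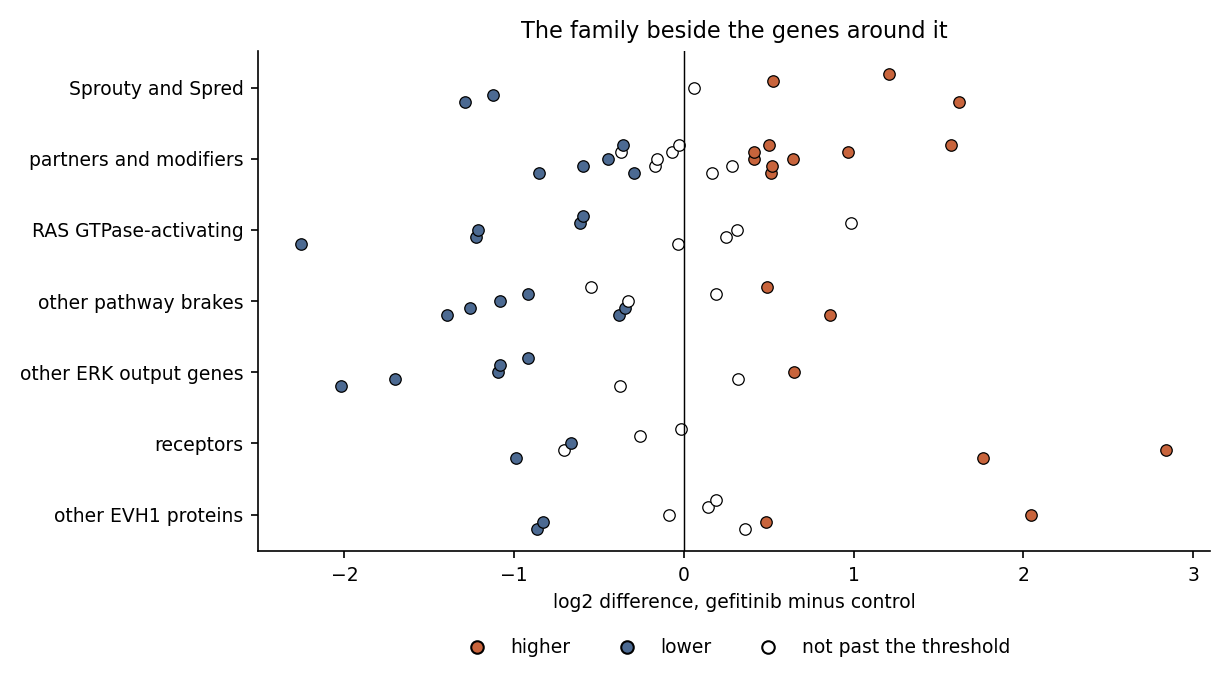
Log2 difference, gefitinib minus control (horizontal axis), for the 6 members (top row) and the tested genes of 6 other lists (rows below), with 1 point per gene, filled where the limma adjusted p was under 0.05. The members spread from -1.29 to 1.62, while the RAS GTPase-activating genes past the threshold all lie below 0.

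The genes whose values over the 6 libraries ran most like each member were sought among 10021 genes (10022 for SPRED3) with a mean of 100 normalized reads or more, by the root mean square difference of the centred log2 values. Such likeness rests mainly on the difference between the groups and is a description. The closest to SPRED2 were CCND1 at 0.02, PNPLA3 at 0.04 and DUSP4 at 0.04 on the log2 scale, and 40 genes lay within 0.1 of it. CCND1 and DUSP4 are also in the list of ERK output genes. The closest to SPRY1 were ZNF584, DCAF16 and EGLN3, at 0.02, 0.04 and 0.04, and 65 genes lay within 0.1 of it. For SPRY2 they were KANSL2, PNRC1 and SPTSSA, at 0.04, 0.05 and 0.05, with 62 genes within 0.1. For SPRY4 they were H2AFY, TRIM66 and TSC22D3, with 41 genes within 0.1. SPRED3 and SPRED1 had few close genes, with SLC40A1, ZNF461 and ZNF419 nearest to SPRED3, and HARS2, CEBPG and ZNF3 nearest to SPRED1. Within 0.1 lay 1 gene for SPRED3 and 3 for SPRED1.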

How the data were processed

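RNA sequencing of 3 control and 3 gefitinib libraries was used. STAR, HTSeq and GRCh38 are listed, with no version, per the submitters' processing notes; whether counting used strand is not stated there. The main deposited values are a signal, that is, gene read counts the authors divided by 1 factor per library so that each sums to 18085800. Undoing that factor gave whole reads, to within 0.01, for 100% of nonzero entries; on these, edgeR called 3707 genes higher and 3752 lower of 12167. A second deposited table gave gene IDs, symbols and start positions; its 6 columns of per-sample counts match no label and are not used. Of 15376 rows, 147 were 0 throughout and 15229 were tested.

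Groups were compared 2-sided on log2(value + 1) by limma with a mean-variance trend (limma 3.58.1 in R 4.3.3); differences are on that scale, which understates change of low genes. Alternatives were pseudocounts of 0.5 and 5, a mean of 10 or more, TMM and DESeq2 size factors, edgeR 4.0.16, DESeq2 1.42.0, a replicate block and leaving out each library. Scripts were tested on simulated data. The members, lists and tests were chosen with earlier results of these data known. Named genes were the members, up to 4 genes per list with the smallest p, all genes of a count of 5 or fewer, and the 3 nearest to each member; CBL and single values of longer counts outside this rule were named after being seen. Values of some list genes are not reported here. Sequences are from RefSeq (GRCh38.p14), which matched all 6 members.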

Additional observations from a re-analysis of the deposited data

How the results depend on the processing

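The 5 calls among the members kept their direction and stayed past the threshold in each of the 14 alternatives. The lowest and highest log2 differences over these were -1.36 and -1.24 for SPRY1, 1.13 and 1.29 for SPRY2, 0.43 and 0.67 for SPRY4, -1.20 and -1.07 for SPRED2 and 1.40 and 1.79 for SPRED3. SPRED1 did not pass in any of them (adjusted p from 0.177 to 0.985), and its difference of 0.06 became -0.01 with TMM factors and -0.0072 with DESeq2 size factors. With 1 library left out it ranged from -0.0582 to 0.2271, below 0 without control replicate 2 (-0.0215) and without gefitinib replicate 2 (-0.0582). The cause was not tested. The median difference of all genes was 0.10 as reported and 0.04 with TMM factors.

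Same-numbered libraries were not linked by the labels. The correlations of their deviations from the group means were 0.127, 0.0444 and 0.0947 for numbers 1, 2 and 3. Between libraries of different numbers they lay between -0.128 and 0.0862. These values do not settle whether the libraries were paired. The numbers were not treated as pairs because the labels give no link. A fit with the replicate block called 4438 genes higher and 3552 lower, against 4312 and 3473, and left every member's call as it was. In that block the SPRY2 to SPRY1 shift was 2.50, which equals the shift without the block by arithmetic and is no check of it. Depth limits SPRED3 most, with 32 reads in control replicate 3.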

Other observations

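SPRY3, the remaining Sprouty gene, was examined after its values were seen. It had 64.2, 54.7 and 70.5 normalized reads in control and 41.0, 34.3 and 35.2 in gefitinib libraries. The groups did not overlap, and the log2 difference was -0.76 ± 0.24 (SE; limma adjusted p = 0.0251, n = 3). Its per-length level, 0.387 ± 0.0488 (SD) in control and 0.226 ± 0.0223 with gefitinib, was far below those of SPRY1, SPRY2 and SPRY4. Leaving out control replicate 3 ended the call (limma adjusted p = 0.0804), as did leaving out gefitinib replicate 2 (0.0844) and gefitinib replicate 3 (0.0716). Across the 14 alternatives its adjusted p lay between 0.00789 and 0.0844.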
